A study of Mus musculus with 14 samples.

Results

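Oxidative phosphorylation genes were taken as the 108 symbols, of 55291 in the count table, that carry the names of respiratory chain or ATP synthase subunits: Nduf with a subunit letter and number, Sdha to Sdhd, Uqcr, Cox4 to Cox8, Atp5, and the mitochondrial genes for NADH dehydrogenase, cytochrome c oxidase, ATP synthase and cytochrome b. The rule uses names only, but it was chosen with earlier results of these data known. Of the 108, 95 are encoded in the nucleus and 13 in mitochondrial DNA. Complex I holds 50 of them (43 nuclear and 7 mitochondrial), complex II 4 (all nuclear), complex III 9 (8 and 1), complex IV 23 (20 and 3) and complex V 22 (20 and 2). Symbols ending in -ps and a number were left out (6), while 7 ending in -ps alone stayed, and 11 of the 108 carry a pseudogene name or annotation. One of those 7, Ndufb1-ps, is the symbol under which the table lists the complex I subunit Ndufb1.

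The respiratory chain moves electrons from NADH and succinate through complexes I, II and III, the carriers ubiquinone and cytochrome c, and complex IV to oxygen, while complexes I, III and IV pump protons out of the mitochondrial matrix. Complex V, the ATP synthase, lets the protons return and makes ATP. Mitochondrial DNA encodes the hydrophobic cores of complexes I, III and IV and 2 membrane subunits of complex V. Every complex except II is therefore built from the products of both genomes.

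The samples were lung tumor nodules, snap-frozen, from C57BL/6 mice whose genotype is given as HER2 Exon20YVMA, an insertion in exon 20 of the receptor tyrosine kinase HER2. After long-term treatment there were 3 libraries each from mice given mobocertinib (a tyrosine kinase inhibitor, TAK-788), T-DM1 (an antibody to HER2 carrying a cytotoxic drug) and the combination of both, 3 resistant ones, from tumors that had acquired resistance under mobocertinib monotherapy, and 2 given vehicle. All 5 groups carry the same allele, and whole nodules were used, so every library mixes tumor cells with other lung cells, and fewer cells of a type cannot be told apart from less RNA per cell. Whether the libraries of a group are separate animals is not stated, and p-values therefore describe the spread among these samples, which may be technical. Library totals lay between 19344015 and 31287261 counts. The 14 libraries differed in how their counts were spread over short and long genes, and no measure of RNA length itself was used. Protein-coding genes under 1 kb took 11.9% to 19.9% of counts in the 12 libraries of the other groups, against 40.2% and 46.4% in vehicle. Those over 5 kb took 8.02% to 13.3%, against 3.57% and 2.63% in vehicle.

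The nuclear subunits took a smaller share of each library's counts in all 4 groups than in vehicle. Together the 95 nuclear members took 1.44%, 1.47% and 1.15% of counts in mobocertinib, 1.06%, 1.38% and 1.09% in T-DM1, 0.971%, 1.29% and 1.39% in the combination, and 0.95%, 0.967% and 1.06% in resistant nodules, against 2.52% and 3.14% in vehicle. No library of the 4 groups reached the lower vehicle library. The 13 mitochondrially encoded members did not follow the nuclear ones. They took 1.48%, 1.07% and 1.52% of counts in mobocertinib, 0.546%, 0.808% and 0.658% in T-DM1, 0.524%, 1.19% and 0.707% in the combination, and 1.3%, 6.25% and 0.767% in resistant nodules, against 1.3% and 0.307% in vehicle. Of the 12 other libraries, 9 lay between the vehicle libraries and 3 lay above both (mobocertinib 1 and 3 and resistant 2), resistant 2 by far the most.

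**Figure D1:**
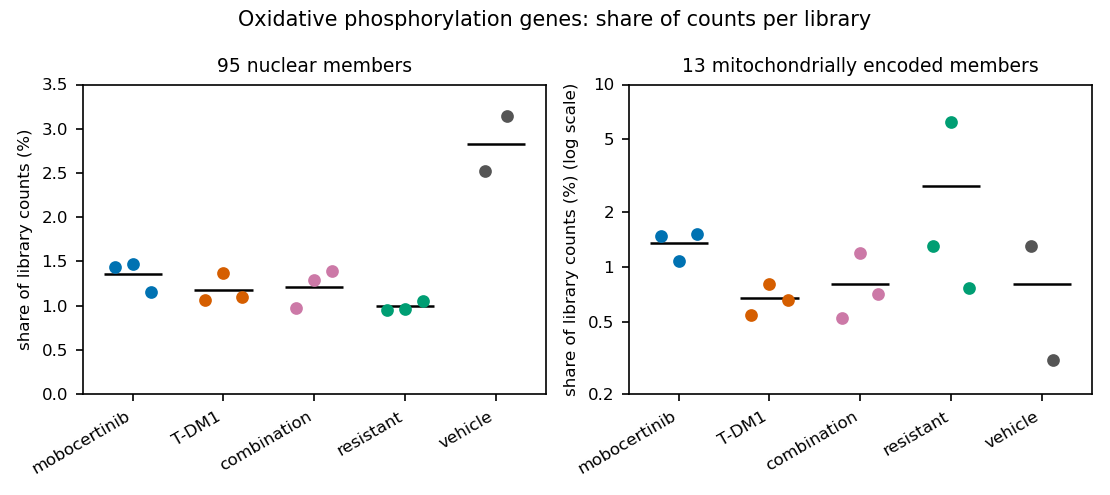
Share of library counts (percent) taken by the 95 nuclear members (left, linear axis from 0) and the 13 mitochondrially encoded members (right, log axis), by group; each point is 1 library and each line the group's mean. Nuclear shares are 0.95% to 1.47% in the 4 groups and 2.52% and 3.14% in vehicle, while mitochondrial shares overlap between groups and reach 6.25% in resistant 2.

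Per gene, 98 members had enough counts to be tested (90 nuclear and 8 mitochondrial) in one edgeR quasi-likelihood fit over 17933 genes, with Benjamini-Hochberg adjustment and a threshold of 0.05 on the adjusted p. Against vehicle, 73 nuclear members fell and 1 rose in mobocertinib, where 32.9% of all genes were called and 16.1% were called lower. In T-DM1 73 fell and 1 rose (31.7% and 14.9% of all genes), in the combination 74 fell and 1 rose (35% and 17.4%), and in resistant nodules 76 fell and 1 rose (41% and 19%). The 1 gene that rose was Sdha in each. The median log2 fold change of the tested nuclear members was −1.86 in mobocertinib, −2.04 in T-DM1, −2.05 in the combination and −2.21 in resistant nodules, beside 0.09, 0.18, 0.08 and 0.18 over all genes tested. Where 4 values stand together below, they belong to mobocertinib, T-DM1, the combination and resistant nodules in that order, each against vehicle. All 4 comparisons share the 2 vehicle libraries. In 77, 77, 80 and 78 nuclear members the libraries of the 2 groups did not overlap and vehicle was higher, a pattern seen in 28.3%, 26%, 29.9% and 25.6% of all genes.

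The TPM table gave other directions for many members. This second table of the authors, which divides by length, holds 92 members and none from mitochondrial DNA. On the log2(TPM + 1) scale 13 of 84 tested members were higher and 14 lower in mobocertinib, 13 and 27 in T-DM1, 13 and 22 in the combination, and 10 and 35 in resistant nodules (limma, adjusted p below 0.05). Most other genes were called higher there: 55%, 57.5%, 56.9% and 59.7% of all genes, with 3.08%, 3.53%, 3.39% and 4.81% called lower. The median of all genes shifted to 1.11, 1.17, 1.18 and 1.27 in TPM, and relative to it the nuclear median stood at −1.28, −1.52, −1.51 and −1.71. With offsets for length and GC content in the edgeR fit, 44, 56, 52 and 54 of 89 nuclear members fell and none rose, beside 14.7%, 15.9%, 15.1% and 18.8% of all genes called lower and 8.64%, 7.27%, 9.17% and 11.4% called higher, with nuclear medians of −1.01, −1.34, −1.11 and −1.09. The TPM values differ from the count fit in how they were made, in library scaling and in the test together, and which of these turned a direction was not tested.

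**Figure D2:**
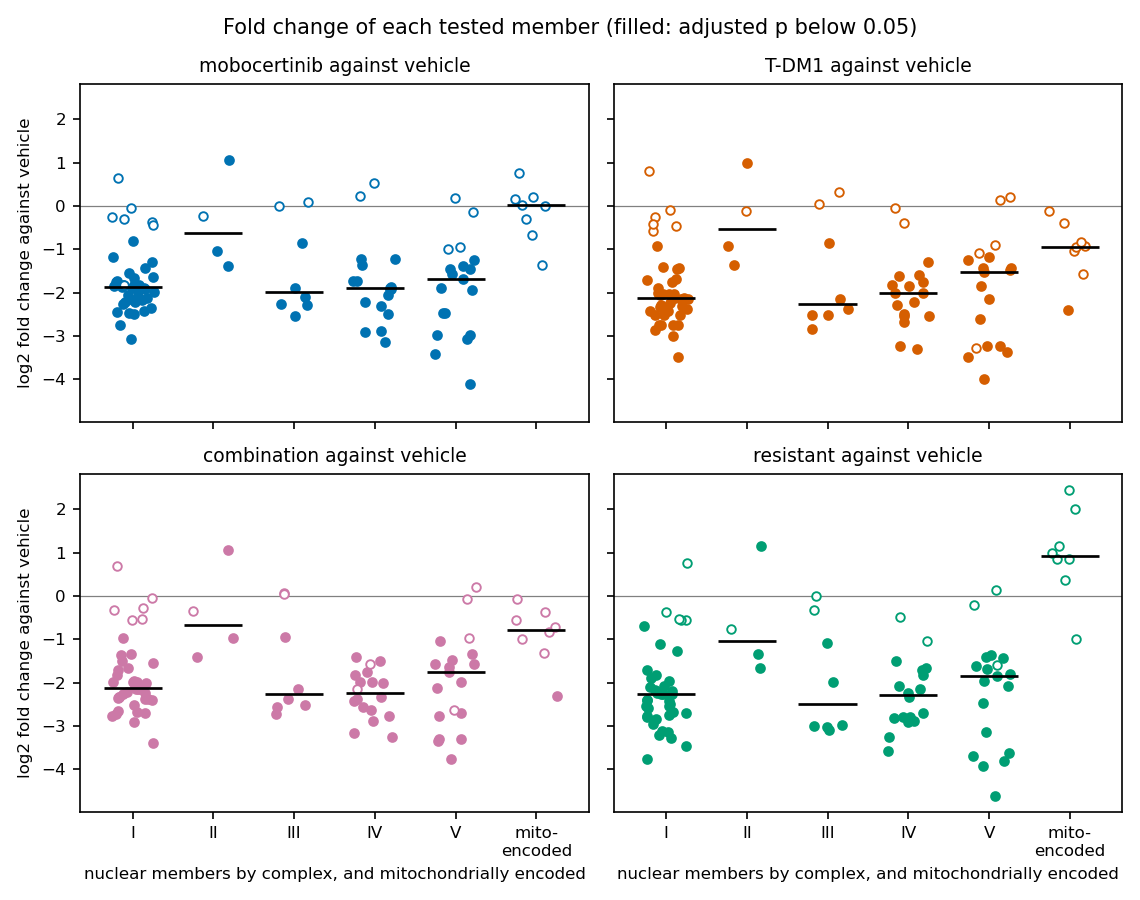
Log2 fold change against vehicle of each tested member from normalized counts, 1 panel per comparison; points are genes, filled where the adjusted p is below 0.05, and lines are medians. Nuclear members of complexes I, III, IV and V lie mostly between −1 and −3 while Sdha of complex II is above 0; on the TPM scale 13, 13, 13 and 10 members are called higher.

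Short subunits fell most. Length here is the median length of a gene's protein-coding transcripts in the GENCODE M21 annotation. Across 82 nuclear members with a length and without the pseudogenes, the log2 fold change rose with length, with a Spearman correlation of 0.6 in mobocertinib, 0.63 in T-DM1, 0.69 in the combination and 0.64 in resistant nodules. These points share the same libraries and are given as a description. Of 30 members under 0.6 kb, 96.7% were called lower in each comparison, beside 58.1%, 57.3%, 63.4% and 65.6% of 227 other protein-coding genes of that length. Their medians were −2.14, −2.4, −2.38 and −2.8, beside −2.08, −2.13, −2.38 and −2.51 for the other genes. In the 27 members of 0.6 to 1 kb the medians were −1.87, −2.03, −1.98 and −2.16, beside −1.28, −1.29, −1.41 and −1.66 for 985 others. In the 19 members of 1 to 2 kb they were −1.03, −0.93, −0.98 and −1.34, beside −0.43, −0.34, −0.46 and −0.54 for 3736 others. Members of each class above 0.6 kb thus lay lower than other genes of their length, while those under 0.6 kb lay within 0.3 of them.

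The 6 members of 2 kb and over were Sdha, Ndufs1, Atp5a1, Ndufa10, Atp5g1 and Ndufb2, with medians of −0.09, −0.13, −0.17 and −0.21 beside 0.53, 0.59, 0.54 and 0.72 for 10026 other genes. Of the 6, Ndufb2 and Atp5g1 were the ones that fell, and both owe their length to long annotated isoforms beside short ones (455 and 4371 bases for Ndufb2, 596 to 4715 for Atp5g1). The cytosolic ribosomal protein genes, which are also short, moved with the short subunits: they took 3.83% to 7.82% of counts in the 12 other libraries, against 20.7% and 21.7% in vehicle. The part of transcript length in the fall of the nuclear subunits was not tested beyond the offsets.

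**Figure D3:**
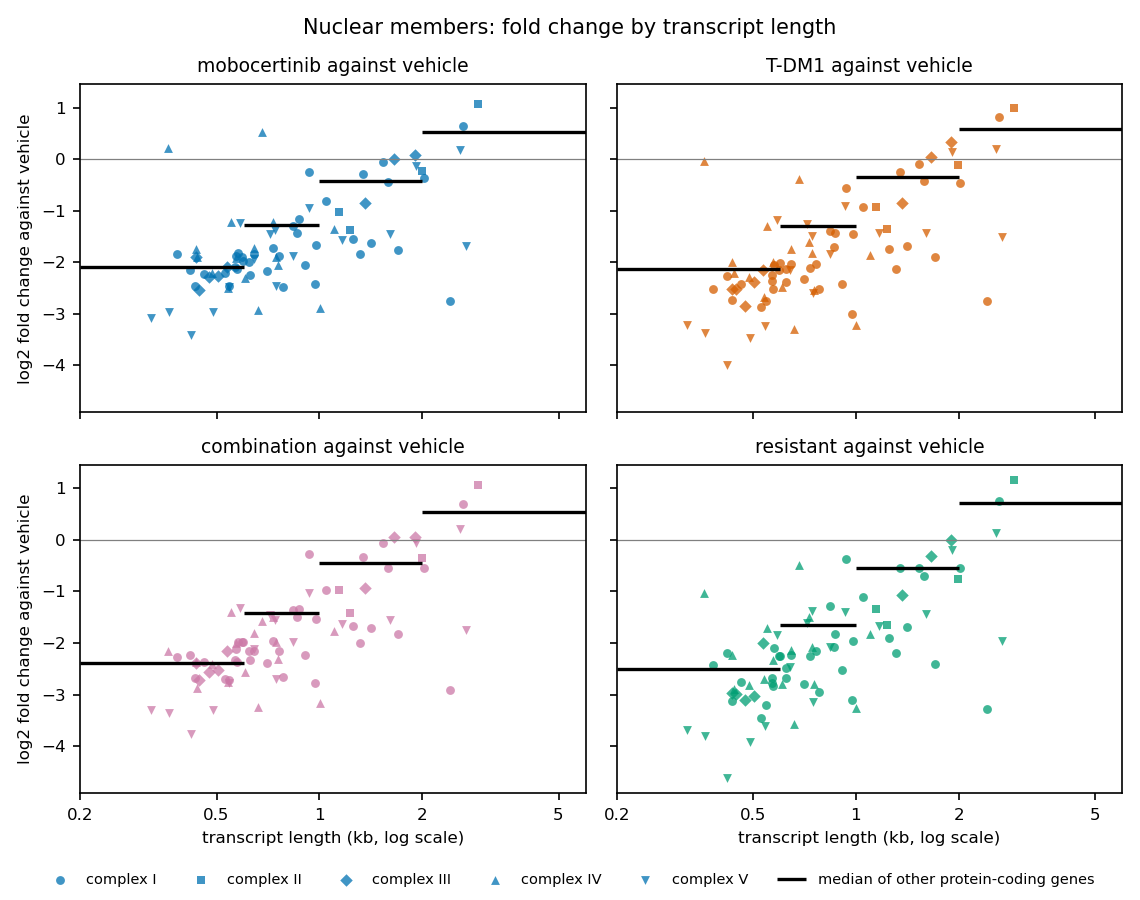
Log2 fold change against vehicle of 82 nuclear members from normalized counts (points, shaped by complex) by transcript length (kb, log scale), with the median of other protein-coding genes of each length class (black lines), 1 panel per comparison. Points run from about −2 and below for the shortest genes to above 0 for Sdha, and in each class above 0.6 kb the members' median is below the black line; in TPM, 13, 13, 13 and 10 of 84 members are called higher.

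Complex I, the NADH dehydrogenase, had 41 nuclear members tested when counted by name, Ndufa4 and Ndufa4l2 among them. Of these, 34 fell in mobocertinib, 35 in T-DM1, 35 in the combination and 36 in resistant nodules. The medians were −1.87, −2.13, −2.12 and −2.26. In TPM 6, 5, 6 and 4 of 39 were higher and 4, 12, 8 and 17 lower, and with the offsets 22, 28, 26 and 29 of 40 fell. Ndufb1-ps, an accessory subunit of the membrane arm, fell most in each: it was at 119, 125 and 96.6 CPM (counts scaled to a common library total) in mobocertinib, 69.6, 111 and 74.7 in T-DM1, 53.3, 93.2 and 127 in the combination, and 47.8, 105 and 57.5 in resistant nodules, against 829 and 1072 in vehicle. Every one of the 12 libraries was far below vehicle. The log2 fold changes were −3.06 ± 0.399 (SE), −3.48 ± 0.405, −3.38 ± 0.403 and −3.76 ± 0.409 (edgeR adjusted p of 0.000356, 0.000228, 0.000195 and 6.41e-05). Ndufb1-ps had no value in TPM, and its pseudogene name kept it out of the comparison by length.

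The catalytic core had smaller median changes than the complex as a whole, a difference that was not tested. Of 7 nuclear core subunits, which form the arm that holds the flavin and the iron-sulfur clusters, 4, 4, 4 and 5 fell, with medians of −0.81, −0.93, −0.97 and −1.11. Ndufs3, a core subunit of the peripheral arm, fell least among called members in mobocertinib, T-DM1 and the combination, by 0.81, 0.93 and 0.97 on the log2 scale. It stood at 67.3, 54.4 and 45.3 CPM in mobocertinib, 45.3, 61.7 and 47.7 in T-DM1, and 47.5, 54 and 48.5 in the combination, against 86.7 and 109 in vehicle. On the TPM scale Ndufs3 had positive values in those 3 comparisons (0.48, 0.39 and 0.44) and was not called (limma adjusted p of 0.0847, 0.154 and 0.113). Ndufs1, the largest core subunit, was at 45.9 to 70.3 CPM in the 12 libraries of the other groups, against 48.8 and 20.1 in vehicle, and was not called in any comparison (log2 fold changes of 0.64, 0.82, 0.69 and 0.75). Ndufv1, which holds the NADH site, and the accessory subunits Ndufa9 and Ndufa10 were not called on the count scale either. TPM values of Ndufs1 were 29.1 to 43.2 in the 12 libraries, against 17 and 6.42 in vehicle. Those of Ndufv1 were 39.2 to 102, against 45.3 and 52.1, with resistant 2 the lowest. Ndufa9 had 57.7 to 94.4, against 26.7 and 31.1, and Ndufa10 63.9 to 106, against 38 and 31.7. These 4 and the other uncalled genes named for complexes III and V were picked after their values were seen.

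Complex II, succinate dehydrogenase, has no mitochondrially encoded subunit and was the complex whose subunits parted on the count scale. Sdha, the flavoprotein that oxidizes succinate, lies at chr13:74322254-74350280 (minus strand, mm10). It was at 195, 185 and 206 CPM in mobocertinib, 152, 217 and 188 in T-DM1, 204, 184 and 194 in the combination, and 160, 224 and 241 in resistant nodules, against 90.9 and 95.6 in vehicle. All 12 libraries were above both vehicle libraries. Sdha rose by 1.07 ± 0.235 in mobocertinib, 0.99 ± 0.234 in T-DM1, 1.06 ± 0.234 in the combination and 1.16 ± 0.235 in resistant nodules (log2, SE, edgeR adjusted p of 0.00483, 0.00736, 0.00464 and 0.00214). The TPM values gave the same direction, with 2.58, 2.49, 2.66 and 2.79. With length and GC offsets the values were 0.58, 0.41, 0.57 and 0.55 and were not called (adjusted p of 0.17, 0.331, 0.178 and 0.173).

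On the count scale the other subunits of complex II went down or did not change detectably. Sdhb, the iron-sulfur subunit, was at 114, 81.1 and 88.8 CPM in mobocertinib, 105, 105 and 95.3 in T-DM1, 92.4, 94.7 and 107 in the combination, and 75.5, 60 and 93.1 in resistant nodules, against 165 and 220 in vehicle. Sdhd, a membrane anchor, was at 146, 125 and 105 CPM in mobocertinib, 137, 132 and 112 in T-DM1, 100.3, 122 and 143 in the combination, and 81, 119 and 108 in resistant nodules, against 332 and 316 in vehicle. For both genes all 12 libraries were below vehicle. Sdhb fell (log2 fold changes of −1.03, −0.92, −0.98 and −1.34) and Sdhd fell (log2 fold changes of −1.37, −1.35, −1.41 and −1.66). Sdhc, the other anchor, was not called (−0.23, −0.12, −0.35 and −0.75). In TPM the signs of Sdhb, Sdhc and Sdhd turned positive, with 0.65, 0.77, 0.81 and 0.48 for Sdhb (not called in resistant nodules, adjusted p = 0.0752) and no call for Sdhd, so the opposite movement of Sdha and Sdhb held on the count scale only, and its difference was not tested.

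The promoter of Sdha is printed because it was the 1 subunit gene called higher on the count scale, beside that of Atp5k, a small membrane subunit of the ATP synthase that fell (log2 fold changes of −3.08, −3.22, −3.29 and −3.68). With the offsets Sdha was not called, and in TPM other members were called higher too. Both windows run 5′ to 3′ from 250 bases before to 50 after the RefSeq start (GRCm38.p6, minus strand, chr13:74350191-74350490 for Sdha and chr5:108434350-108434649 for Atp5k). Capitals mark matches, on either strand, to the motif of nuclear respiratory factor 1 (NRF1; GCGCA and GCGC with any 1 base between them), CCGGAAG for ETS factors such as GABP, or AAGATGGCG for YY1.
Sdha: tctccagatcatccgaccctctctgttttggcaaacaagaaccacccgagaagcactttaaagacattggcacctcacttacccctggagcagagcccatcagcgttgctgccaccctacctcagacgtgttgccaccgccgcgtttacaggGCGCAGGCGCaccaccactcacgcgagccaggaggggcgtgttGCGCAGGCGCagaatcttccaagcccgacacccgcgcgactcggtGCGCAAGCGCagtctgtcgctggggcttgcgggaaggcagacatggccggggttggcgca
Atp5k: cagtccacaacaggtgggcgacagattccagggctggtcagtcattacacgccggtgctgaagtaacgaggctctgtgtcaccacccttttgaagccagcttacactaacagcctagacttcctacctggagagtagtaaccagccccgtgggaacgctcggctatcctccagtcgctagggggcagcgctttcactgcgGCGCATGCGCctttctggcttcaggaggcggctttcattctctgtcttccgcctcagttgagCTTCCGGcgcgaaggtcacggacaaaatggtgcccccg
Sdha has 3 matches to the NRF1 motif, and Atp5k has one, plus one to CCGGAAG. RefSeq windows were found for 68 nuclear members (73 windows). The NRF1 motif was in 24.7% of these windows and in 4.6% of all 32851 windows, CCGGAAG in 23.3% and 8.86%, AAGATGGCG in 9.59% and 1.4%, and TATAAA in 12.3% and 13.6%. On the count scale the members fell with and without these letters: of 17 tested genes with the NRF1 motif, 15 fell and 1 rose in each comparison, and of 50 without it, 44, 44, 45 and 45 fell. All 17 tested genes with CCGGAAG fell in each comparison. The matches are a description of the letters and say nothing of binding.

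Complex III, which passes electrons from ubiquinol to cytochrome c, had 6 of 8 nuclear members lower in each comparison, with medians of −1.99, −2.26, −2.27 and −2.48. In TPM 3 of 8 were higher in each and 0, 2, 2 and 4 lower. Its small hinge subunit Uqcrh was at 682, 459 and 333 CPM in mobocertinib, 327, 366 and 309 in T-DM1, 244, 489 and 495 in the combination, and 243, 332 and 268 in resistant nodules, against 1677 and 3131 in vehicle. It fell (log2 fold changes of −2.29, −2.85, −2.55 and −3.1), with adjusted p of 0.00109, 0.000374, 0.000527 and 0.000122. Uqcr11, another small subunit, fell by 2.53 in mobocertinib and 2.72 in the combination, the largest falls of the complex there. Uqcrfs1, the Rieske iron-sulfur protein, fell least, by 0.86, 0.85, 0.94 and 1.08, and was higher in TPM by 0.84, 0.82, 0.84 and 0.74. The core proteins Uqcrc1 and Uqcrc2 were not called on the count scale: Uqcrc1 was at 67 to 187 CPM in the 12 libraries, against 119 and 190 in vehicle, and Uqcrc2 at 97.1 to 178, against 165 and 83 in vehicle. Both were above vehicle in TPM in all 12 libraries. Uqcrc1 had TPM values of 56.1 to 169, against 37.2 and 41.1 in vehicle, and Uqcrc2 83.2 to 128, against 44.4 and 15.3.

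Complex IV, cytochrome c oxidase, had 16 of 18 nuclear members lower in each comparison, with medians of −1.9, −2.0, −2.24 and −2.28. Counted by name, it was the complex with no member called higher in TPM, where 4, 7, 6 and 7 of 16 were lower. Ndufa4 and Ndufa4l2, described below with the complex IV forms, were counted in complex I, and Ndufa4l2 was called higher in TPM in each comparison. Cox7a2, a short subunit in the ubiquitous form of the enzyme, was at 221, 195 and 158 CPM in mobocertinib, 124, 179 and 139 in T-DM1, 97.8, 171 and 189 in the combination, and 93.7, 153 and 118 in resistant nodules, against 1312 and 1579 in vehicle. Its fall of 3.29 ± 0.325 in T-DM1, 3.24 ± 0.324 in the combination and 3.57 ± 0.328 in resistant nodules was the largest of the complex (adjusted p of 0.000214, 0.000154 and 5.91e-05), and it also fell in TPM, by 1.62, 1.51 and 1.78. In mobocertinib Cox6c2 fell most, by 3.14, but at 0.178 to 0.399 CPM, against 2.1 and 3.49 in vehicle, and 52.7% of its 50-base stretches are shared with Cox6c, so its counts are uncertain. Cox4i1, the ubiquitous form of the largest nuclear subunit, fell in each comparison and was at 379 to 794 CPM in the 12 libraries, against 1940 and 3772 in vehicle. Cox8a fell least in T-DM1 and the combination, by 1.29 and 1.4, and was not called in TPM, where its values were 0.24 and 0.23 (limma adjusted p of 0.466 and 0.488).

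Several complex IV subunits have forms used in other tissues. The ubiquitous forms Cox4i1, Cox6a1, Cox6b1, Cox7a2 and Cox8a, and the related gene Cox7a2l, fell in all 4 comparisons on the count scale. In TPM, however, Cox7a2l turned positive in mobocertinib (0.32) and Cox8a in mobocertinib, T-DM1 and the combination (0.29, 0.24 and 0.23), with no call. Cox4i2, the form of lung and oxygen-sensing cells, fell (log2 fold changes of −1.22, −1.6, −1.5 and −1.49), but had positive values in TPM (1.01, 0.57, 0.82 and 0.84) that were not called (limma adjusted p of 0.0598, 0.26, 0.116 and 0.105). The testis form Cox6b2 fell (log2 fold changes of −1.74, −2.0, −2.37 and −2.23), at 2.21 to 8.0 CPM, against 17.3 and 25.3 in vehicle. Ndufa4, a subunit once assigned to complex I, fell (log2 fold changes of −2.22, −2.41, −2.37 and −2.75), while its hypoxia-induced relative Ndufa4l2 was not called (7.0 to 13.4 CPM, against 7.38 and 19.5 in vehicle). Ndufa4l2 was higher in TPM by 1.5, 1.18, 1.54 and 1.44. The testis form Cox7b2 had 2 counts in resistant 2 and none elsewhere, Cox8c had none in any library, and neither was tested.

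The forms of heart and skeletal muscle were uneven between libraries. Cox6a2 was at 4.63, 6.24 and 39.0 CPM in mobocertinib, 16.9, 7.21 and 2.32 in T-DM1, 2.19, 2.48 and 6.93 in the combination, and 2.62, 14.1 and 7.98 in resistant nodules, against 9.36 and 13.7 in vehicle. Cox8b was at 0.299, 0.664 and 5.37 CPM in mobocertinib, 5.0, 0.186 and 0.118 in T-DM1, 0.447, 0.473 and 0.295 in the combination, and 0.509, 0.913 and 1.24 in resistant nodules, against 3.6 and 0 in vehicle. Neither was called in any comparison. Cox7a1, the third muscle form, fell (log2 fold changes of −1.9, −2.21, −2.88 and −2.9), and was at 1.38 to 8.99 CPM, against 14 and 26.2 in vehicle. The libraries with the most Cox6a2 and Cox8b outside vehicle, mobocertinib 3 and T-DM1 1, also had the largest sums over 15 striated muscle markers, 1041 and 610 CPM. That sum was 10.7, 162 and 1041 CPM in mobocertinib, 610, 7.86 and 14 in T-DM1, 61.4, 5.75 and 12.9 in the combination, and 14, 433 and 495 in resistant nodules, against 112 and 25.3 in vehicle. The part of muscle tissue in these values was not tested.

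**Figure D4:**
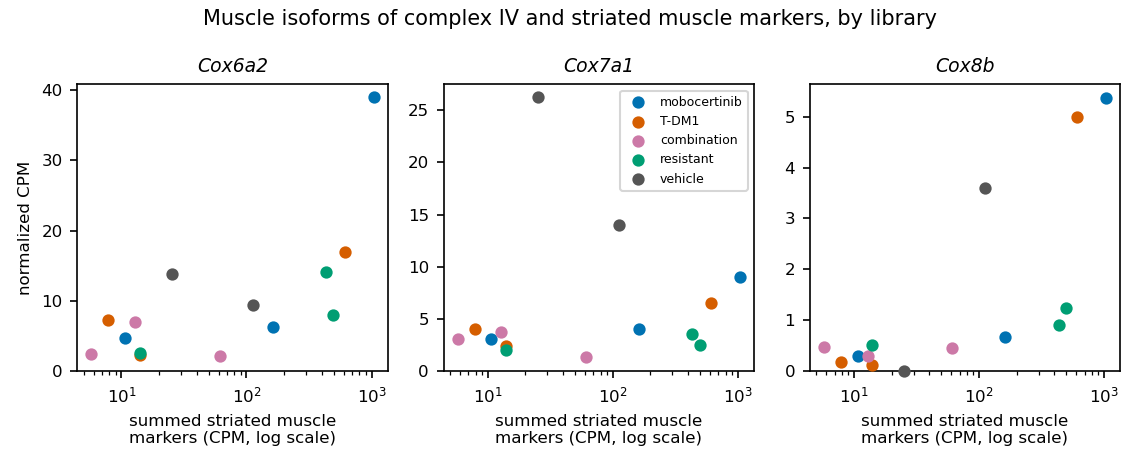
Level of 3 muscle isoforms of complex IV (normalized CPM, linear axis) by the summed CPM of 15 striated muscle markers (log axis); each point is 1 library, colored by group. Mobocertinib 3 and T-DM1 1 have the highest marker sums, 1041 and 610 CPM, and the most Cox6a2 and Cox8b, while Cox7a1 is highest in vehicle at 14 and 26.2 CPM.

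Complex V, the ATP synthase, had 15, 14, 15 and 16 of 19 nuclear members lower, with medians of −1.68, −1.51, −1.75 and −1.85. In TPM 1, 2, 1 and 1 of 17 were higher and 6, 6, 6 and 7 lower. Atp5e, the small epsilon subunit of the F1 head, was at 612, 616 and 322 CPM in mobocertinib, 276, 448 and 301 in T-DM1, 207, 454 and 554 in the combination, and 199, 236 and 232 in resistant nodules, against 3014 and 7929 in vehicle. Every library lay far below both vehicle libraries, which also differed widely from each other. Atp5e fell (log2 fold changes of −3.41 ± 0.488, −4.0 ± 0.498, −3.76 ± 0.494 and −4.62 ± 0.51, adjusted p of 0.000481, 0.000285, 0.000263 and 6.54e-05). In TPM it fell (log2 fold changes of −2.18, −1.94 and −2.65) in T-DM1, the combination and resistant nodules. Per kilobase of transcript Atp5e had the highest vehicle level of any member with a length, at 12996 CPM per kb.

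Of 5 subunits of the F1 head 2, 2, 3 and 3 fell. Atp5a1 and Atp5b, the alpha and beta subunits that form the catalytic sites, were not called on the count scale: Atp5a1 was at 498 to 704 CPM in the 12 libraries, against 539 and 536 in vehicle, and Atp5b at 519.9 to 979, against 789 and 733 in vehicle. Their log2 fold changes on that scale were within 0.21 of 0 in the 4 comparisons with vehicle. The TPM values of Atp5a1 were 302 to 426 in the 12 libraries, against 139 and 117 in vehicle. Those of Atp5b were 434 to 827, against 456 and 384. The smaller delta subunit Atp5d fell by 1.04 in the combination, but was at 0.76 in TPM with no call (limma adjusted p = 0.0849). All 9 subunits of the stalk and membrane part fell in each comparison, with medians of −2.46, −2.6, −2.7 and −3.15. Atp5j, coupling factor 6 of the stalk, fell least among called members in resistant nodules, by 1.37, and was at 0.45 in TPM with no call (limma adjusted p = 0.236).

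The c ring, which turns in the membrane as protons pass, is encoded by 3 genes for the same mature protein, and all 3 fell in each comparison. Atp5g1 fell (log2 fold changes of −1.68, −1.51, −1.75 and −1.96), Atp5g2 fell (log2 fold changes of −1.25, −1.18, −1.33 and −1.85), and Atp5g3 fell (log2 fold changes of −1.44, −1.25, −1.47 and −1.62). In TPM Atp5g3 was at 0.22, 0.42, 0.3 and 0.2 and was not called (limma adjusted p of 0.365, 0.0885, 0.216 and 0.408). Of Atp5g2, 87.4% of 50-base stretches are shared with Gm10175 and Gm10231, so its counts are uncertain, as are those of Atp5l (84.8%). The pseudogene Atp5l2-ps was the lowest called member of complex V in mobocertinib (−4.11, adjusted p = 0.0489) at 0.0355 to 0.148 CPM, against 0.6 and 2.3 in vehicle.

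Of the 13 mitochondrially encoded members, 8 could be tested. Over all 14 libraries mt-Co1 held 1537134 counts, mt-Cytb 1063548, mt-Nd5 486868, mt-Nd1 455156, mt-Nd2 372844, mt-Nd4 362113, mt-Nd6 4525 and mt-Nd3 187. The remaining 5 were near 0: mt-Co2 had 9 counts, mt-Co3 3, mt-Atp6 2, and mt-Atp8 and mt-Nd4l none, which allows up to 3 counts over the 14 libraries. The genes near 0 sit together, and most have a copy of their sequence on chromosome 1 (mm10): mt-Co2, mt-Co3, mt-Atp6 and mt-Nd4l were 100% identical to the annotated pseudogenes Gm28661, Gm28437, Gm10925 and Gm10222 over 681, 783, 678 and 294 bases, and mt-Nd3 to Gm28438 over 345 bases with 1 mismatch. The copies held few counts as well (103, 154, 310, 15 and 14). Of mt-Nd4, 876 bases were identical to Gm28439, and of mt-Co1, 492 bases were 98.8% identical to Gm29216, and both were well counted. No source used here says how reads that match several places were counted, and the values near 0 are not read as expression.
The first 120 bases of mt-Nd3 and bases 281 to 400 of mt-Co2 are printed with their copies to show how little tells them apart (GENCODE M21 transcripts, mm10, chrM:9459-9578 and chrM:7293-7412 on the plus strand, chr1:24613000-24613119 and chr1:24615166-24615285 on the minus strand). The capital letter marks the 1 base that differs.
mt-Nd3: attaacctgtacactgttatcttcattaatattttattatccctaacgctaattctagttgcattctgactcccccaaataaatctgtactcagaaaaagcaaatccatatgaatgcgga
Gm28438: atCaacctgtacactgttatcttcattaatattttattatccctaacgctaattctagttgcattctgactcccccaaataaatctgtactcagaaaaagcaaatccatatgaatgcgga
mt-Co2: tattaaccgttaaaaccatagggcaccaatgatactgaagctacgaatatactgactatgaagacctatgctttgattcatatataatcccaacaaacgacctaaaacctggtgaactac
Gm28661: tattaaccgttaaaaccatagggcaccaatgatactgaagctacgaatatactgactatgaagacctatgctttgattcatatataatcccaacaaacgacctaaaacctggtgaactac

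The tested mitochondrial members were seldom called. Against vehicle none of the 8 was called in mobocertinib or resistant nodules by edgeR (0 and 2 at an unadjusted p below 0.05, a level that 44.4% and 50.6% of all genes passed), and 1, mt-Nd6, fell in T-DM1 and in the combination. Their median log2 fold change was 0.02 in mobocertinib, −0.94 in T-DM1, −0.78 in the combination and 0.92 in resistant nodules. With length and GC offsets these medians were 1.37, 0.31, 0.65 and 1.63, so the negative ones changed sign. With the offsets mt-Nd2 and mt-Nd4 were called higher in mobocertinib, and mt-Nd2, mt-Nd4, mt-Nd5 and mt-Cytb in resistant nodules, beside 8.64% and 11.4% of all genes. Resistant 2 had mt-Nd2 at 7486 CPM, where the other resistant libraries had 853 and 517, and the offset fit was not repeated without it. Without the offsets, leaving out 1 library moved the medians between −0.53 and 0.93 in mobocertinib, −1.35 and −0.14 in T-DM1, −1.31 and 0.25 in the combination, and −0.49 and 2.21 in resistant nodules.

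The vehicle libraries disagreed on the mitochondrial genes. mt-Co1, the catalytic subunit of complex IV, was at 5750, 3363 and 5077 CPM in mobocertinib, 1868, 3182 and 2405 in T-DM1, 1720, 4238 and 2052 in the combination, and 3936, 19055 and 2702 in resistant nodules, against 8376 and 1092 in vehicle. The vehicle libraries were above and below all but one of the others. mt-Cytb, the cytochrome b of complex III, was at 4096, 2620 and 3363 CPM in mobocertinib, 1372, 1900.2 and 1494 in T-DM1, 1268, 2939 and 1744 in the combination, and 2639, 13006 and 2146 in resistant nodules, against 4657 and 1902 in vehicle. Vehicle 2 had a ratio of mt-Cytb to mt-Co1 of 1.74, while the 13 other libraries had 0.556 to 0.85. Mitochondrial ribosomal RNA stood at 20.8 to 59.2 counts per 1000 counts of mitochondrial messenger RNA in the 12 libraries, against 149 and 569 in vehicle.

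mt-Nd6 is the 1 protein gene on the light strand of mitochondrial DNA. It was at 16.9, 13.5 and 11.8 CPM in mobocertinib, 4.62, 10.4 and 5.54 in T-DM1, 4.55, 11.5 and 5.75 in the combination, and 6.69, 38.0 and 9.68 in resistant nodules, against 25.1 and 47.1 in vehicle. All libraries except resistant 2 were below vehicle. It fell by 2.39 ± 0.655 in T-DM1 (adjusted p = 0.0155) and 2.31 ± 0.654 in the combination (adjusted p = 0.0164), and neither was called without vehicle 2 (−1.76, adjusted p = 0.13, and −1.66, adjusted p = 0.139) or with the offsets. Vehicle 2 had 8.37 counts of mt-Nd6 per 1000 of the other mitochondrial messenger RNAs, against 0.635 to 1.48 in the other 13 libraries. No source used here says whether counting used strand, so reads from the strand opposite mt-Nd6 cannot be told apart from its own.

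**Figure D5:**
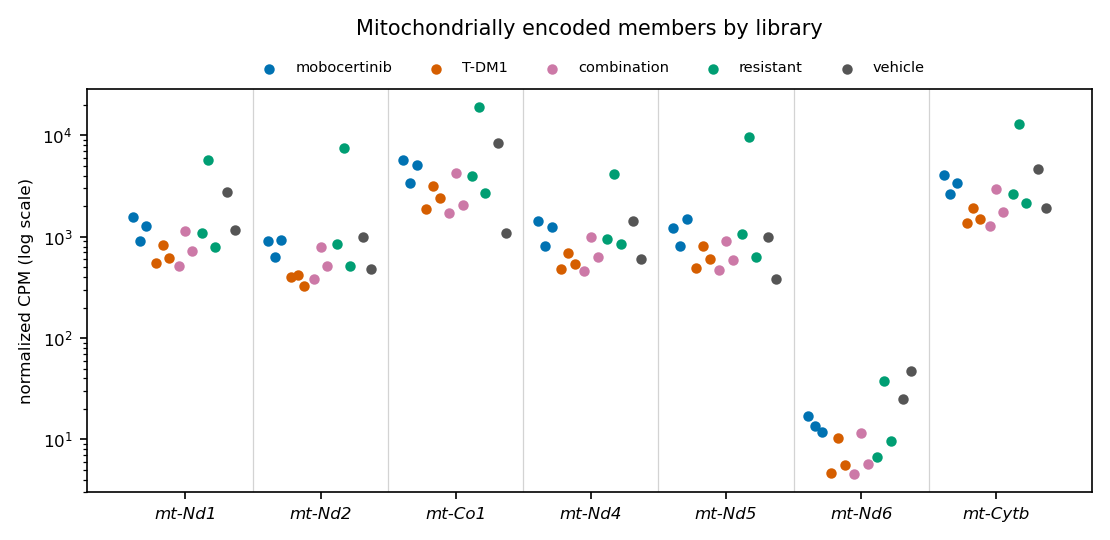
Level of 7 mitochondrially encoded members (normalized CPM, log scale) by library; each point is 1 library, with groups side by side for each gene. Resistant 2 is above every library for 6 of the 7 genes, T-DM1 lies below mobocertinib in all 7, and vehicle spans 8376 and 1092 CPM for mt-Co1.

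The ratio of mitochondrial to nuclear counts gives the balance of both genomes within a library. It was 1.03, 0.731 and 1.32 in mobocertinib, 0.513, 0.588 and 0.601 in T-DM1, 0.54, 0.921 and 0.509 in the combination, and 1.37, 6.47 and 0.724 in resistant nodules, against 0.516 and 0.0979 in vehicle. Vehicle 1 overlapped T-DM1 and the combination, and vehicle 2 lay below every other library. Resistant 2 set itself apart in its mitochondrial genes, not in its nuclear share: it had mt-Nd5 at 9596 CPM, where the other resistant libraries had 1064 and 629, and mt-Nd2 at 7486, where they had 853 and 517. Without it the resistant median of the mitochondrial members against vehicle was −0.49.

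Among the 4 groups without vehicle no member was called by edgeR. In T-DM1 against mobocertinib, where 0.0279% of all genes were called, 2 members had an unadjusted p below 0.05 (9.56% of all genes), and the median was −0.14 for nuclear and −0.98 for mitochondrial members. The combination against mobocertinib (0% of all genes called) gave 1 such member (1.46%) and medians of −0.16 and −0.76. The combination against T-DM1 (0%) gave 0 such members (5.1%) and medians of −0.004 and 0.19. Resistant nodules against mobocertinib (0.00558%) gave 16 (7.77%) and medians of −0.46 and 0.94. A single test for any difference among the 4 groups called 0 members of 98 (0.0279% of all genes, and 8 members at an unadjusted p below 0.05, as 9.21% of all genes were), while DESeq2 called 2, mt-Nd2 and mt-Nd5 (adjusted p of 0.00544 and 0.0204). Values that are not called are not shown to be equal, and the median SE of a member was 0.305 in T-DM1 against mobocertinib.

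Resistant nodules against mobocertinib gave the most members at an unadjusted p below 0.05 among these comparisons, without a call. Of the 16 members with an unadjusted p below 0.05, 15 were nuclear and lower and 1, mt-Nd2, was higher. Atp5e was at 199, 236 and 232 CPM in resistant nodules, against 612, 616 and 322 in mobocertinib, without overlap, for a log2 fold change of −1.22 ± 0.431 (edgeR adjusted p = 0.622). In T-DM1, 7 of 8 mitochondrial members lay below every mobocertinib library, where 9.32% of all genes did so, with no call (smallest adjusted p of 0.616).

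Assembly factors, which put the complexes together, mostly fell where they were called on the count scale, and here too the TPM scale gave another split. Over all genes tested, 16.1%, 14.9%, 17.4% and 19% were called lower and 16.8%, 16.7%, 17.6% and 22% higher on counts, and 3.08%, 3.53%, 3.39% and 4.81% lower and 55%, 57.5%, 56.9% and 59.7% higher in TPM. Of 18 tested factors of complex IV, 11 fell in each comparison and 0, 1, 0 and 1 rose, while in TPM 8, 9, 9 and 8 were higher and 2, 4, 2 and 8 lower. Cox19, a copper-handling factor, was at 22.7 to 34.6 CPM in mobocertinib and fell (log2 fold changes of −1.96, −2.25, −2.09 and −2.73). Coa3 fell (log2 fold changes of −2.15, −2.21, −2.39 and −2.79). Of 15 factors of complex I, 7, 6, 7 and 8 fell and 2, 1, 2 and 1 rose, while in TPM 10, 9, 9 and 8 were higher and 0, 1, 0 and 1 lower. Ndufaf5 fell (log2 fold changes of −2.11, −2.38, −2.12 and −2.64) and Ndufaf6 fell (log2 fold changes of −2.59, −2.22, −2.73 and −2.49). For complex II 3 of 4 factors fell in each comparison (0, 1, 0 and 1 lower in TPM), among them Sdhaf4 (−1.96, −2.31, −2.15 and −2.79). For complex III 2 of 6 fell in each (0, 1, 0 and 1 lower and 3 higher in TPM), Uqcc2 (−2.22, −2.55, −2.44 and −3.19) and Uqcc3 (−1.8, −2.04, −2.01 and −2.38). Atpif1, the inhibitor of the ATP synthase, fell (log2 fold changes of −2.09, −2.29, −2.38 and −2.74) and Tmem70, an assembly factor, fell (log2 fold changes of −1.41, −1.48, −1.63 and −1.7), as 2 of 4 of their list. Tmem70 was not called in TPM, where its values were 0.32, 0.19, 0.18 and 0.03.

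Electron carriers and the enzymes of ubiquinone synthesis gave 5, 4, 5 and 9 of 16 lower and 1, 1, 1 and 0 higher, against 0 lower and 9, 11, 10 and 10 higher in TPM. Cycs, cytochrome c, was at 37.8, 33.0 and 33.8 CPM in mobocertinib, 48.0, 54.3 and 39.6 in T-DM1, 31.4, 34.1 and 36.2 in the combination, and 27.8, 51.6 and 38.6 in resistant nodules, against 115 and 89.3 in vehicle. It fell (log2 fold changes of −1.55, −1.11, −1.59 and −1.38), and was not called in TPM (−0.92, −0.5, −0.95 and −0.2). Ndufab1, the acyl carrier protein that is also a complex I subunit but lies outside the naming rule, fell (log2 fold changes of −1.93, −1.94, −2.13 and −2.18). The tricarboxylic acid cycle, which feeds the chain with NADH and succinate, had no gene lower on any of the 3 scales: of 13 genes 2, 3, 2 and 4 rose on counts, 1, 1, 2 and 3 with the offsets and 12, 12, 12 and 13 in TPM. The shares that rose on counts are near those of all genes called higher (16.8%, 16.7%, 17.6% and 22%), and in TPM 55%, 57.5%, 56.9% and 59.7% of all genes were called higher. Ogdh, a subunit of 2-oxoglutarate dehydrogenase, rose by 1.48, 1.24, 1.43 and 1.53, and Dlst, of the same complex, by 0.97, 0.64, 0.83 and 0.82, and neither was called with the offsets.

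Regulators of mitochondrial biogenesis were mixed, with 3, 2, 2 and 4 of 9 higher and 3, 0, 2 and 2 lower, and in TPM 4, 6, 5 and 5 of 8 higher and none lower. With the offsets 2, 1, 2 and 2 of 9 were higher and 4, 5, 4 and 4 lower. Over all genes 16.8%, 16.7%, 17.6% and 22% were called higher and 16.1%, 14.9%, 17.4% and 19% lower on counts, and 55%, 57.5%, 56.9% and 59.7% higher in TPM, and with lists this short the counts are given as a description. Ppargc1a, the coactivator PGC-1 alpha, was at 7.52, 3.32 and 10.9 CPM in mobocertinib, 4.33, 3.37 and 2.75 in T-DM1, 6.78, 5.79 and 10.7 in the combination, and 5.13, 15.4 and 4.37 in resistant nodules, against 0.42 and 0.892 in vehicle. All 12 libraries were above vehicle. It rose by 3.47 ± 0.748, 2.41 ± 0.717, 3.57 ± 0.751 and 3.67 ± 0.755 (adjusted p of 0.00431, 0.0227, 0.00352 and 0.00231), although in T-DM1 it was not called without vehicle 1 (adjusted p = 0.117) or vehicle 2 (adjusted p = 0.0512), or with the offsets (adjusted p = 0.095). Gabpa, the DNA-binding subunit of GABP, rose by 1.39, 1.33, 1.32 and 1.85. Nrf1 rose in resistant nodules (0.68) and was not called elsewhere (0.48, 0.32 and 0.51). Esrra, the estrogen-related receptor alpha, fell in mobocertinib, the combination and resistant nodules (−0.97, −0.88 and −1.33), was not called in T-DM1 (−0.74), and had positive values in TPM in all 4, called in T-DM1 and the combination. With the offsets Esrra was lower in all 4.

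Genes for the transcription, copying and RNA processing of mitochondrial DNA gave 5, 7, 5 and 8 of 23 lower and 2, 1, 1 and 1 higher, but 2, 1, 2 and 2 lower and 15, 15, 16 and 16 higher in TPM. Of all genes 16.1%, 14.9%, 17.4% and 19% were called lower on counts and 55%, 57.5%, 56.9% and 59.7% higher in TPM. Slirp, which stabilizes mitochondrial messenger RNA with its partner Lrpprc, fell (log2 fold changes of −2.82, −2.86, −3.0 and −2.95), and was also lower in TPM (−1.32, −1.33, −1.37 and −1.4), and Ssbp1, the single-strand DNA-binding protein, fell (log2 fold changes of −1.48, −1.55, −1.56 and −1.53), where TPM gave 0.23, 0.17, 0.24 and 0.29 with no call. Tfam, which packages mitochondrial DNA and starts its transcription, was lower in resistant nodules (−0.63, adjusted p = 0.0439) and not called in the others (−0.58, −0.61 and −0.57). With length and GC offsets that call ended and its direction turned (0.33, adjusted p = 0.285), and in TPM Tfam was higher in all 4 (1.27, 1.31, 1.3 and 1.46). Their part in the mitochondrial values was not tested.

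Sums of some cell type markers differed between vehicle and the other groups, and others overlapped. The 7 alveolar type 2 markers summed to 8488 to 75398 CPM in the 12 libraries, against 138768 and 207027 in vehicle, and 1, 1, 2 and 1 of them fell, beside the share of all genes called lower (16.1%, 14.9%, 17.4% and 19%). In TPM none, none, none and 1 of the 7 was lower and 1 was higher in each. The 8 alveolar macrophage markers summed to 386 to 3566 CPM, against 9733 and 8441 in vehicle, and 3, 4, 4 and 3 fell. The 8 endothelial markers summed to 519.7 to 1111 CPM, against 206 and 247 in vehicle. Of these, 6 rose in each comparison, where 16.8%, 16.7%, 17.6% and 22% of all genes were called higher. With the offsets 3 or 4 rose, beside 8.64%, 7.27%, 9.17% and 11.4% of all genes. Pericyte markers summed to 212 to 337 CPM, against 170.5 and 304 in vehicle. Club markers (4890 to 29991 CPM, against 8621 and 20656 in vehicle), ciliated markers (44.5 to 471 CPM, against 101 and 66.5), T cell markers (5.23 to 67.5 CPM, against 7.38 and 13.6) and B cell markers (4.01 to 185 CPM, against 31 and 70.4) overlapped vehicle. The brown fat list includes Ppargc1a, its 1 called gene, while its defining gene Ucp1 was at 0 in both vehicle libraries and at most 0.64 CPM elsewhere. The part of cell composition in the fall of the nuclear subunits was not tested.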

How the data were processed

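The deposited count table holds whole-number counts for 55291 gene symbols in 14 libraries, and the deposited second table holds TPM values that the authors adjusted for transcript length and library size. The tools STAR and RSEM and the build mm10 are named in the submitters' processing notes. No source used here gives their versions or roles, the annotation, the strand setting or the handling of reads with several matches.

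From the deposited counts, one edgeR 4.0.16 quasi-likelihood fit (TMM factors, robust, 9 residual degrees of freedom) over the 5 groups tested 17933 genes that passed its default filter by group, with p-values adjusted over all of them (Benjamini-Hochberg) and called below 0.05. Normalized CPM are counts scaled to a common library total with TMM factors, an SE is the log2 fold change divided by the root of the F statistic, and library depth limits the precision of the low genes. Lengths, GC content and positions came from GENCODE M21, for 107 of the 108 members. Promoter windows came from RefSeq (GRCm38.p6). Stretches of 50 bases shared between transcripts were counted to mark uncertain genes. The deposited TPM values were tested as log2(TPM + 1) with limma 3.58.1, for genes with a TPM of 1 in 2 libraries, so a fold change understates low genes.

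Named were, per comparison and complex, the called nuclear member with the largest and the smallest log2 fold change, all mitochondrial members, complex II, a panel of isoforms, up to 2 called members of each further list and 5 regulators or carriers. For 1 gene that this rule names, the result is not reported here. The members and lists were chosen with earlier results of these data known. Alternatives were other normalization factors, filters, tools (DESeq2 1.42.0, limma-voom), offsets for length and GC content, the TPM scale and leaving out each library. The code was tested on simulated data. In 13 pairs of libraries of 1 group the counts always differed beyond sampling noise, with a chi-square of 87.9 to 504 for each degree of freedom.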

Additional observations from a re-analysis of the deposited data

How the results depend on the processing

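Counts of called members kept within 1.5 times of those reported under RLE and upper-quartile factors, with mitochondrial genes out of the library sizes, both count filters, limma-voom, and the compared groups alone. DESeq2 did so in all but the test of any difference, where it called 2 members. Length and GC offsets called 46 members in mobocertinib against vehicle. The scales log2(TPM + 1), log2(TPM + 0.1) and log2(TPM + 1) without a filter called 27, 28 and 27 in mobocertinib, 40, 42 and 37 in T-DM1, 35, 35 and 31 in the combination and 45, 45 and 44 in resistant nodules, each against vehicle, from tables without mitochondrial genes. Leaving out 1 library gave 54 to 74, 58 to 75, 59 to 75 and 67 to 81 called members against vehicle, with the lowest counts without vehicle 2, and 0 in every comparison among the other groups.

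With the offsets Tfam was 0.33 in resistant nodules. The TPM table, which differs from the count fit in its values, library scaling and test at once, changed the sign of the genes below, and the cause was not tested. This list is not complete, as Ssbp1 and Tmem70, described above, changed sign too. Values are log2 fold changes against vehicle from log2(TPM + 1), which were the same without a filter, and then from log2(TPM + 0.1), in the order mobocertinib, T-DM1, combination and resistant. Atp5g3 was 0.22, 0.42, 0.30 and 0.20, then 0.22, 0.43, 0.30 and 0.20. Cox4i2 was 1.01, 0.57, 0.82 and 0.84, then 1.06, 0.61, 0.87 and 0.88. Esrra was 0.70, 0.93, 0.90 and 0.40, then 0.73, 0.96, 0.93 and 0.42. Ndufa4l2 was 1.5, 1.18, 1.54 and 1.44, then 1.67, 1.32, 1.71 and 1.6. Sdhb was 0.65, 0.77, 0.81 and 0.48, then 0.66, 0.78, 0.82 and 0.48. Sdhc was 1.80, 1.92, 1.83 and 1.26, then 1.82, 1.94, 1.85 and 1.28. Sdhd was 0.29, 0.32, 0.35 and 0.14, then 0.29, 0.33, 0.35 and 0.14. Tfam was 1.27, 1.31, 1.3 and 1.46, then 1.34, 1.39, 1.37 and 1.54. Uqcrfs1 was 0.84, 0.82, 0.84 and 0.74, then 0.85, 0.83, 0.86 and 0.75. In mobocertinib, T-DM1 and the combination Cox8a was 0.29, 0.24 and 0.23 on both scales, and Ndufs3 was 0.48, 0.39 and 0.44, then 0.49, 0.39 and 0.44. In mobocertinib Cox7a2l was 0.32 on both scales. In the combination Atp5d was 0.76 on both scales. In resistant nodules Atp5j was 0.45 on both scales.

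No paired analysis was possible because the labels give no replicate numbers that groups share. With 2 vehicle libraries that differ from each other in the mitochondrial genes, every comparison with vehicle rests on few samples. The tests cover only the spread among these libraries.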
